A study of Mus musculus with 32 samples.

Results

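The axon injury response genes are the set of 8 genes Atf3, Jun, Sprr1a, Ecel1, Sox11, Gap43, Gadd45a and Gal. They were chosen by name as genes that neurons switch on after their axon is damaged, with earlier results of these data known. All 8 were found among the 42524 genes of the count table, and all 8 had enough reads to be tested in every comparison. RNA from the spinal cord was sequenced in 32 mice, 4 in each of 8 groups, which differed in genotype (WT or G93A), treatment (untreated or OKN007) and age (90 or 155 days by the labels, while the study's text gives the earlier age as slightly later). G93A mice carry a human SOD1 transgene with a mutation of familial amyotrophic lateral sclerosis (ALS), B6-Tg(SOD1-G93A)1Gur/J, on the C57BL/6J background, and the WT mice were littermates without it. OKN007, a nitrone compound with antioxidant properties, was given in the drinking water; the labels do not give the dose of the sequenced mice, and the study worked mostly with females. The transgene is present in every cell of the G93A mice, and whole pieces of cord were extracted, so the values do not say which cells hold a transcript, and fewer cells of a type cannot be told apart from less RNA per cell.

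When a peripheral axon is crushed or withdraws from its target, the neuron switches from a transmitting to a regrowing state. Kinases of the DLK and JNK pathway carry the signal to the cell body, where c-Jun (Jun) and ATF3 (Atf3), transcription factors that bind AP-1 and CRE-like DNA sites, and the SoxC factor Sox11 are raised. Among the genes that follow are Sprr1a, a small proline-rich protein that promotes axon outgrowth, Gap43, the growth cone protein, Ecel1, a membrane metallopeptidase-like protein of injured neurons, Gadd45a, a stress-induced regulator of DNA repair and demethylation, and Gal, the precursor of the neuropeptide galanin. Motor neurons are the spinal cord neurons whose axons leave the cord, and their loss is the hallmark of ALS. Jun, Gadd45a and, to a lesser degree, Atf3 are also induced by stress in glia and other cells.

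All 8 genes lie on the minus strand of the mouse genome (GRCm38, GENCODE M21 positions, protein coding). Atf3 spans chr1:191170296-191218039 and Ecel1 chr1:87147655-87156521. Jun spans chr4:95049034-95052222, Sprr1a chr3:92483952-92485895 and Sox11 chr12:27334264-27342574. Gap43 spans chr16:42248442-42340651, Gadd45a chr6:67035096-67037457 and Gal chr19:3409915-3414544. The exons of Jun overlap those of the antisense gene Junos in part, and the exons of Gadd45a overlap in part those of E230016M11Rik on the other strand. Since the strand setting of the counting was not stated, reads of such pairs may not be fully told apart. Junos stood between 0.452 and 1.83 CPM over all mice, against at least 64.6 CPM for Jun.

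Because Jun and Atf3 bind AP-1 and CRE-like sites, the promoters of the members were searched for both. RefSeq promoters (250 bases before to 50 bases after the start, GRCm38.p6) were found for 7 of the 8 genes, without Gap43. Only the 250 bases before the start were searched. For Atf3 they were chr1:191183334-191183583, which lies inside the gene span given above. The AP-1 site TGANTCA, read on both strands, occurred in 1 of the 7, Sprr1a, and in 6.75% of all 32851 promoters. The CRE-like site TGACNTCA, read on both strands, occurred in 3 of the 7 (Jun, Sprr1a and Sox11) and in 7.49% of all promoters. The canonical CRE, TGACGTCA, occurred in 0 of the 7 and in 1.55% of all promoters. Only these exact patterns were counted. Variants such as TTACGTCA, which lies before the start of Atf3, and TTACCTCA, before that of Jun, were not. Sprr1a held both kinds of site, while Atf3, Ecel1, Gadd45a and Gal held no match. The stretches that hold the matches are shown 5′ to 3′ on the gene's strand, with the matches in capitals. They are chr4:95052240-95052287 (minus strand) for Jun, chr3:92485971-92486108 (minus strand) for Sprr1a and chr12:27342733-27342780 (minus strand) for Sox11, where the match lies on the opposite strand.
Jun: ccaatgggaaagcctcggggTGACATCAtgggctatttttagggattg
Sprr1a: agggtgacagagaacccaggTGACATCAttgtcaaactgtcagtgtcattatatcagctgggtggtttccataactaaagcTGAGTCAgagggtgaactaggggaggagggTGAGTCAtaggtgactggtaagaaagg
Sox11: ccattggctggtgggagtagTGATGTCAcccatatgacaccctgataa
The Sprr1a stretch holds the CRE-like site 207 bases before the start and AP-1 sites 146 and 116 bases before it. The match begins 45 bases before the start in Jun and 42 bases before it in Sox11. A match is a description of the letters and not a measured binding site.

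The total of gene counts ranged from 19701722 to 30138257 over the mice (median 26658755), so that 3 counts stood for 0.152 CPM in the shallowest library, a limit that covers counting error only. Levels below are CPM after TMM scaling over all 32 mice, and each library was taken as 1 mouse. At 155 days, markers of several cell types differed between G93A and WT mice, and their part in the results below was not tested. In untreated mice, 11 of 12 motor neuron markers were lower in G93A (summed level 1141 to 1669 CPM, against 2755 to 3682 CPM in WT), and 10 of 10 general neuron markers were lower. All 9 microglia markers were higher (1398 to 2524 CPM against 324 to 393 CPM), as were 7 of 8 astrocyte markers (14288 to 19742 CPM against 4789 to 5278 CPM). Of the 12 markers of dorsal root ganglion neurons, the other neurons known for this response, 7 could be tested, with Avil higher and Pou4f1 and Rprml lower; their sum was 21.5 to 24.6 CPM in G93A and 29.3 to 39.0 CPM in WT, and Mrgprd was at or under the 3-count level in every mouse of the 4 groups of 155 days. Of the 10 Schwann cell and nerve root markers, 9 were tested, with Drp2, Egr2 and Gldn higher. Caudal Hox genes, which mark the position along the cord, also separated the genotypes at this age. Their mean log2(CPM + 1) was 1.46 to 3.23 in untreated G93A mice and 3.41 to 4.03 in untreated WT mice, and 2.13 to 3.24 against 3.88 to 4.10 in the treated mice. Traces of liver RNA (Alb above 40 CPM) were found in 3 libraries, G93A untreated mouse 12 and G93A OKN007 mouse 15 at 155 days and WT OKN007 mouse 6 at 90 days.

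At 155 days, late in the disease but before its end stage, 7 of the 8 genes were higher in untreated G93A than in untreated WT mice, and every G93A mouse lay above every WT mouse for all 7 of them. The exception was Gal. In this comparison 39.5% of the 18675 genes tested passed the test, 21.3% of the genes tested in the higher direction, and 15.6% of all genes had every G93A mouse above every WT mouse. The comparison asks how a late stage of the disease changed the spinal cord, and it was tested with edgeR's quasi-likelihood test, two-sided, with Benjamini-Hochberg adjustment over all genes tested (adjusted p under 0.05). The changes ranged from 1.25-fold for Gap43 to 43.2-fold for Sprr1a.

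**Figure D1:**
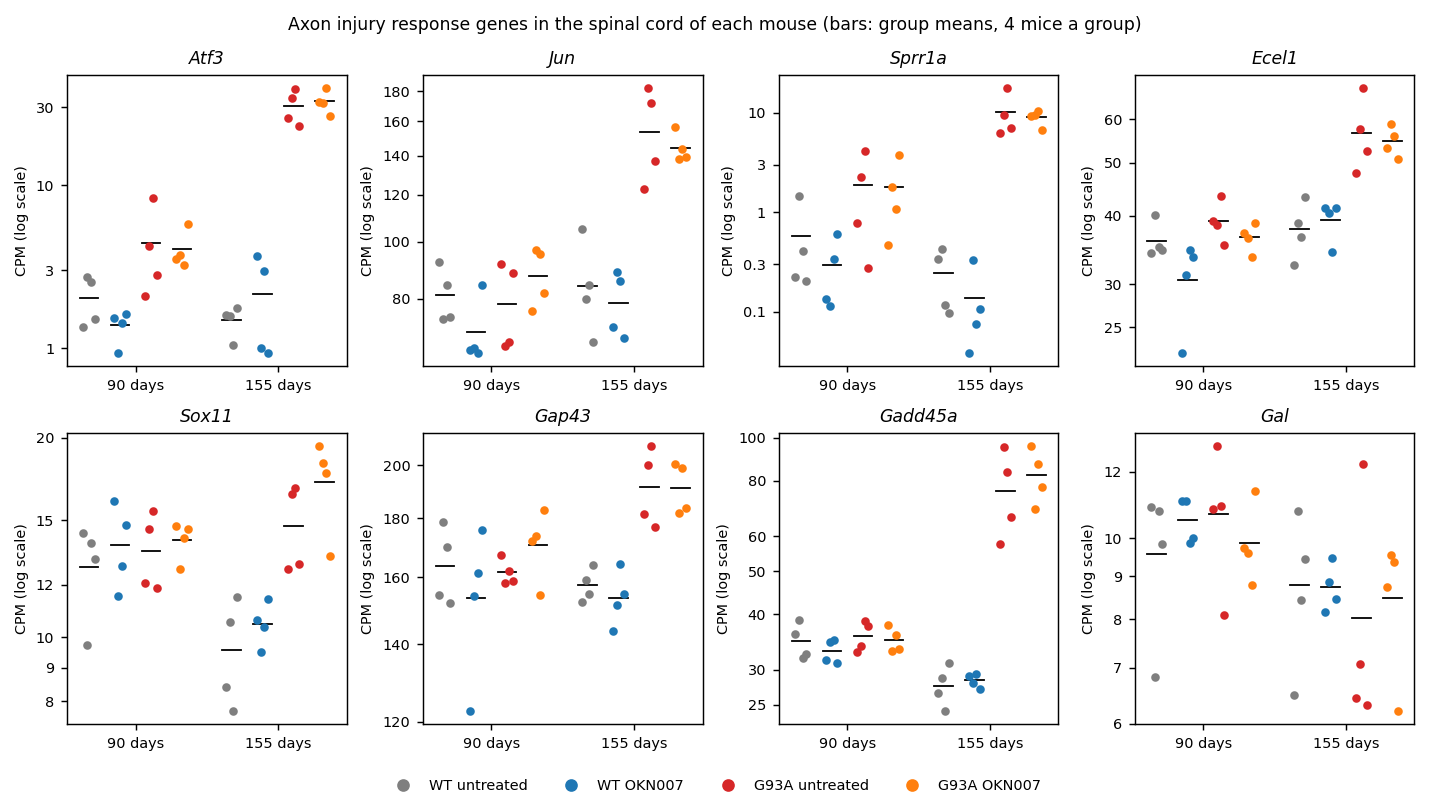
Level of each of the 8 genes in CPM (log scale) in every mouse, with bars at the means of the 4 mice of a group, by age, genotype and treatment. The G93A mice of 155 days lie above the WT mice of that age in all panels but Gal, with Atf3 at 23.1 to 39.6 CPM against 0.935 to 3.69 CPM.

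Atf3, the stress-induced transcription factor that is nearly silent in intact neurons, stood at 1.60, 1.58, 1.05 and 1.76 CPM in the 4 untreated WT mice and at 25.9, 34.2, 38.9 and 23.1 CPM in the 4 untreated G93A mice. The lowest G93A mouse was thus far above the highest WT mouse. The difference was 20.8-fold (log2 fold change 4.38 ± 0.31 SE, n = 4 against 4, edgeR adjusted p = 2.77e-09). Jun stood at 105, 79.8, 84.5 and 67.5 CPM in WT and at 123, 183, 172 and 137 CPM in G93A, so that the groups did not overlap although the highest WT mouse came near the lowest G93A mouse. It was 1.88-fold higher (log2 fold change 0.91 ± 0.13, edgeR adjusted p = 1.39e-05). Sox11, a factor of the SoxC group that drives growth programs in developing and injured neurons, stood at 8.41, 10.6, 7.73 and 11.5 CPM in WT and at 12.7, 16.4, 16.8 and 12.9 CPM in G93A. Its groups lay close together without overlap, with a difference of 1.58-fold (log2 fold change 0.66 ± 0.14, edgeR adjusted p = 0.00109).

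Sprr1a showed the largest fold change of the 8 genes, from a level close to the limit of the depth. The 4 untreated WT mice had 9, 10, 3 and 3 reads of Sprr1a (0.342, 0.426, 0.117 and 0.0981 CPM), and the G93A mice had 167, 231, 440 and 219 reads (6.25, 9.51, 17.9 and 7.12 CPM). All G93A mice were far above all WT mice, and the size of the fold rests on those few WT reads. The fitted difference was 43.2-fold (log2 fold change 5.43 ± 0.43, 95% interval 4.54 to 6.33, edgeR adjusted p = 9.60e-09). Gap43, by contrast, was abundant in every mouse. It stood at 152, 159, 155 and 164 CPM in WT and at 182, 200, 208 and 177 CPM in G93A. The groups did not overlap, and the difference was the smallest that passed the test among the 8 genes (1.25-fold, log2 fold change 0.33 ± 0.067, edgeR adjusted p = 0.000748).

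Gadd45a stood at 26.6, 28.7, 24.2 and 31.0 CPM in untreated WT mice and at 57.7, 95.6, 83.7 and 66.4 CPM in untreated G93A mice. Each G93A mouse held more than any WT mouse, and the difference was 2.82-fold (log2 fold change 1.5 ± 0.13, edgeR adjusted p = 3.25e-08). Its antisense neighbour E230016M11Rik stood at a mean of 4.84 CPM in untreated WT and 4.83 CPM in untreated G93A mice at this age. Ecel1 stood at 32.4, 38.8, 36.6 and 43.3 CPM in WT and at 47.8, 57.5, 68.5 and 52.4 CPM in G93A. The difference was 1.54-fold, with no overlap (log2 fold change 0.62 ± 0.10, edgeR adjusted p = 9.67e-05). Gal stood at 6.50, 10.8, 8.43 and 9.45 CPM in WT and at 6.43, 7.08, 12.3 and 6.31 CPM in G93A. Here 1 G93A mouse, number 11, was the highest of the 8 and the other 3 were among the 4 lowest. The log2 difference of Gal was -0.093 ± 0.20 (95% interval -0.50 to 0.32, edgeR adjusted p = 0.743).

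The same 7 genes were higher in G93A than in WT mice when both were treated with OKN007, a comparison with other mice in both groups, in which 41.5% of 18675 genes passed the test and 23.3% passed it in the higher direction. Every treated G93A mouse again lay above every treated WT mouse for these 7 genes, as it did for 20.2% of all genes. Atf3 stood at 3.69, 0.999, 3 and 0.935 CPM in treated WT mice and at 32.6, 31.9, 39.6 and 26.4 CPM in treated G93A mice. The WT mice fell into a higher and a lower pair, and the difference was 16-fold (log2 fold change 4.00 ± 0.30, edgeR adjusted p = 4.19e-09). Sprr1a had 1, 9, 2 and 3 reads in treated WT mice and 278, 268, 321 and 169 reads in treated G93A mice, with a log2 fold change of 6.05 ± 0.46 (95% interval 5.08 to 7.02), which was 6.91 without WT mouse 6, the mouse with 9 reads. Gadd45a rose from 29.1, 28, 29.4 and 27.1 CPM to 95.9, 69.0, 87.1 and 77.3 CPM, with a log2 fold change of 1.61 ± 0.13. The other 4 genes had log2 fold changes of 0.95 ± 0.13 (Jun), 0.79 ± 0.14 (Sox11), 0.55 ± 0.10 (Ecel1) and 0.39 ± 0.067 (Gap43). For Gal the log2 difference was 0.032 ± 0.19 (edgeR adjusted p = 0.916).

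The caudal Hox genes separated the same mice, so position along the cord and genotype cannot be fully told apart at 155 days. A fit with the Hox level as a covariate cannot separate position from genotype, since the Hox levels of the genotypes did not overlap. In that fit, 7 of the 8 genes passed the test in both comparisons, where 27.5% (untreated) and 28.9% (OKN007) of all genes did. In untreated mice the log2 fold change then was 4.46 for Atf3, 5.83 for Sprr1a, 1.45 for Gadd45a, 0.82 for Jun, 0.82 for Ecel1, 0.75 for Sox11 and 0.32 for Gap43, while that of Gal was 0.24 (edgeR adjusted p = 0.484). Without the libraries above the Alb cutoff, 7 of 8 passed in both comparisons, where 38.8% (untreated) and 37.3% (OKN007) of all genes did.

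**Figure D2:**
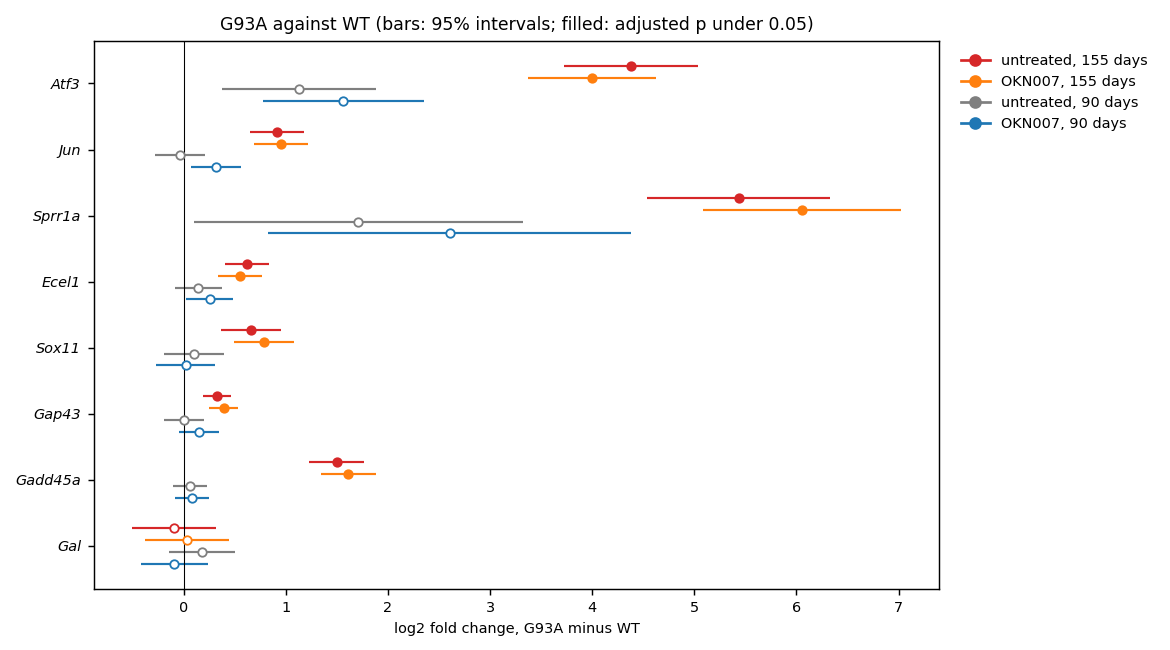
Log2 fold change of each gene in G93A against WT mice, with 95% intervals, for untreated and OKN007-treated mice of 155 and 90 days; filled points passed the test (edgeR adjusted p under 0.05). At 155 days 7 of 8 points are filled and to the right of 0 in both treatments, while at 90 days none is filled and the points of Atf3 (1.13 and 1.56) and Sprr1a (1.71 and 2.60) lie farthest to the right.

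Levels of different genes were compared per length of exon sequence (RPKM, with the exon union of GENCODE M21). Gap43 was the most abundant member in every group, at 101 to 126 RPKM over the group means. In untreated WT mice of 155 days, Jun followed at 26.4 ± 4.87 RPKM (SD, n = 4), Gadd45a at 15.7 ± 1.65, Gal at 11.2 ± 2.28 and Ecel1 at 10.8 ± 1.29 RPKM. Sox11 (1.15 ± 0.213 RPKM), Atf3 (0.695 ± 0.144 RPKM) and Sprr1a (0.305 ± 0.203 RPKM) were the scarcest. In untreated G93A mice of that age Atf3 reached 14.2 ± 3.40 RPKM and Sprr1a 12.6 ± 6.59 RPKM, near the levels of Ecel1 (16.2 ± 2.54 RPKM) and Gal (10.2 ± 3.62 RPKM).

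The order of the 8 groups by mean CPM differed among the genes. For Atf3, the 4 WT groups came lowest (means of 1.38 to 2.16 CPM), the G93A groups of 90 days next (4.07 ± 1.18 and 4.39 ± 2.81 CPM, SD, n = 4) and the G93A groups of 155 days highest (30.5 ± 7.31 and 32.6 ± 5.39 CPM). Of the 7 steps in this order, the ranges of neighbouring groups did not overlap in 1, that between G93A untreated mice of 90 and of 155 days. Sprr1a had the same 3 tiers, with means of 0.139 to 0.572 CPM, 1.79 to 1.87 CPM and 9.07 to 10.2 CPM, and separated between G93A untreated mice of 90 days and G93A OKN007 mice of 155 days. For Jun and Ecel1, the 6 other groups lay between 70.1 and 87.5 CPM and between 30.5 and 39.3 CPM, and the G93A groups of 155 days stood apart, at 144 to 154 CPM for Jun and 54.7 to 56.6 CPM for Ecel1.
Gadd45a had its lowest means in the WT groups of 155 days (27.6 and 28.4 CPM), its middle means in the 4 groups of 90 days (33.0 to 35.8 CPM) and its highest in the G93A groups of 155 days (75.9 and 82.4 CPM), without overlap between the tiers' neighbours. Sox11 and Gap43 had the same 2 groups highest, but the ranges of all neighbours in their order overlapped. The order of Gal had the 4 groups of 155 days lowest (8.02 to 8.79 CPM) and those of 90 days highest (9.59 to 10.7 CPM), with overlap at every step.

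At 90 days, about the time of onset of the disease, none of the 8 genes passed the test between G93A and WT mice, and few genes of any kind did. In untreated mice 0% of 18899 genes passed (edgeR, 1126 at an unadjusted p under 0.05, among them Atf3 and Sprr1a; 16 genes and no member by DESeq2). In OKN007-treated mice 0% passed (edgeR, 747 at an unadjusted p under 0.05, among them Atf3, Jun, Sprr1a and Ecel1, and 3 genes and no member by DESeq2). With the treatments averaged, 8 G93A against 8 WT mice, 0.0265% of the genes passed, which were 5 genes and no member by edgeR, against 66 genes by DESeq2, Atf3 among them. Atf3 was nevertheless higher in most G93A mice. It stood at 1.34, 2.75, 2.55 and 1.51 CPM in untreated WT, 2.10, 4.25, 8.39 and 2.82 CPM in untreated G93A, 1.54, 0.942, 1.43 and 1.63 CPM in treated WT and 3.53, 3.71, 3.23 and 5.82 CPM in treated G93A mice. Thus 7 of the 8 G93A mice lay above every WT mouse, and G93A untreated mouse 9 at 2.10 CPM did not. Every treated G93A mouse lay above every treated WT mouse, as was the case for 1.81% of all genes, while in untreated mice, where 0.958% of all genes had every G93A mouse above every WT mouse, the genotypes overlapped.

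With the treatments averaged, the log2 fold change of Atf3 was 1.35 ± 0.26 (2.54-fold, 95% interval 0.80 to 1.89), with an adjusted p of 0.0870 by edgeR's quasi-likelihood test. This call depended on the tool. DESeq2 gave an adjusted p of 0.000359 and edgeR's likelihood ratio test one of 0.000649, while robust dispersions gave 0.110. It also depended on single mice, since leaving out G93A untreated mouse 9 or 12 gave adjusted p-values of 0.0276 and 0.0262. Without the WT library that held liver transcripts the adjusted p was 0.187. With a mouse left out the log2 fold change ranged from 1.08 to 1.46, and under every other setting it was at least 1.26.

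Sprr1a had 6, 39, 11 and 5 reads in untreated WT, 20, 49, 96 and 8 in untreated G93A, 3, 3, 8 and 13 in treated WT and 12, 45, 29 and 112 in treated G93A mice of 90 days. The G93A mice were higher on the whole, but both genotypes spread widely and overlapped. In untreated mice its log2 fold change was 1.71, against 2.72 without WT mouse 2 and 0.95 without G93A mouse 11. In treated mice it was 2.60, against 1.90 without G93A mouse 16. The averaged log2 fold change was 2.16 ± 0.57 (95% interval 0.96 to 3.36, edgeR adjusted p = 0.291), and the likelihood ratio test, with an adjusted p of 0.0399, called it. Ecel1 differed by 0.20 ± 0.077 on the log2 scale (edgeR adjusted p = 0.623). The averaged log2 differences of Jun, Gap43, Gadd45a, Sox11 and Gal lay between 0.044 and 0.14, and the upper ends of their 95% intervals between 0.19 and 0.32. For Gadd45a the interval was -0.046 to 0.19, below its change at 155 days.

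Whether the G93A change differed between the ages was tested with the 32 mice in 1 fit. In untreated mice it was larger at 155 than at 90 days for 5 of the 8 genes, where 21.2% of 19829 genes passed the test and 12.9% passed it in the higher direction. The difference of the log2 fold changes was 3.26 ± 0.52 for Atf3 (edgeR adjusted p = 2.25e-05), 3.74 ± 1 for Sprr1a, 1.42 ± 0.16 for Gadd45a (edgeR adjusted p = 7.61e-08), 0.93 ± 0.18 for Jun and 0.47 ± 0.16 for Ecel1 (edgeR adjusted p = 0.0309). Sox11 (0.54 ± 0.20, edgeR adjusted p = 0.0507) and Gap43 (0.31 ± 0.12, edgeR adjusted p = 0.0541) just missed the threshold, and passed it in 10 (Sox11, adjusted p down to 0.0147 without mouse 2 of 90 days) and 6 (Gap43, adjusted p down to 0.0203 without mouse 5 of 90 days) of 32 refits with a mouse left out. These calls also depended on the tool. DESeq2 called both, with adjusted p-values of 0.0485 for Sox11 and 0.0392 for Gap43. It thus called 7 of the 8 genes, and 4829 of all 19817 genes tested. The likelihood ratio test (adjusted p = 0.0431) and robust dispersions (adjusted p = 0.0481) in edgeR called Sox11, and without the libraries with liver transcripts Sox11 (0.0392) and Gap43 (0.0379) passed as well. Sox11 also passed with mice of the same number as a block (edgeR adjusted p = 0.0436), and Gap43 with at least 10 counts required in every mouse (edgeR adjusted p = 0.0404). The value of Sprr1a was 2.72 without mouse 2 of 90 days, where its call was lost (edgeR adjusted p = 0.0835), and 4.51 without mouse 11 of 90 days. The call of Ecel1 was lost without any of mice 2 and 12 of 90 days and mice 1, 3, 10 and 11 of 155 days (edgeR adjusted p up to 0.0986). In treated mice 23% of the genes passed, 13% in the higher direction, and 5 of the 8 did: Atf3 (2.39 ± 0.53), Sprr1a (3.40 ± 1.22, edgeR adjusted p = 0.0412), Gadd45a (1.5 ± 0.16), Jun (0.60 ± 0.18) and Sox11 (0.73 ± 0.20). In treated mice Ecel1 differed by 0.26 ± 0.16 and Gap43 by 0.21 ± 0.12, and Gap43 passed without mouse 5 of 90 days (edgeR adjusted p = 0.0368). The call of Sprr1a was lost without any of mice 7, 8, 13, 14 and 15 of 90 days and mice 5, 7, 8, 13, 14 and 15 of 155 days (edgeR adjusted p up to 0.163) and with robust dispersions (0.0645), and its value was 4.10 without mouse 16 of 90 days and 4.26 without mouse 6 of 155 days. The ages are separate mice, so that age and any batch of that age cannot be told apart. Oligodendrocyte and astrocyte marker sums of both genotypes and microglia sums of G93A mice also differed between the ages, and their part in these results was not tested. At 90 days the caudal Hox levels of the genotypes overlapped, unlike at 155 days. They were 2.28 to 3.70 (WT) and 2.58 to 3.42 (G93A) in untreated mice, and 2.25 to 3.24 and 1.65 to 3.53 in treated mice. Position along the cord thus cannot be fully told apart from the difference between the ages.

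The age comparisons within each genotype were made in untreated mice. In G93A mice, 6 of the 8 genes were higher at 155 than at 90 days, where 33.7% of all genes passed and 21% were higher. Atf3 was 7.09-fold higher (log2 fold change 2.82 ± 0.33), Sprr1a 5.61-fold, Gadd45a 2.14-fold, Jun 1.98-fold, Ecel1 1.47-fold and Gap43 1.2-fold. For Sprr1a the fold was 9.57 without mouse 11 of 90 days. Gal had a log2 difference of -0.40 ± 0.18 (edgeR adjusted p = 0.0936), and Sox11 one of 0.14 ± 0.14. Gal passed without mouse 12 of 90 days (edgeR adjusted p = 0.0366) or mouse 11 of 155 days (edgeR adjusted p = 0.00334), and Gap43 did not without mouse 10 of 155 days (edgeR adjusted p = 0.0523). In untreated WT mice, where 24.9% of all genes passed, Sox11 (log2 fold change -0.40 ± 0.14, edgeR adjusted p = 0.0375) and Gadd45a (-0.32 ± 0.11, edgeR adjusted p = 0.0353) were lower at 155 days. Sox11 went from 14.3, 9.73, 13.9 and 13.1 CPM to 8.41, 10.6, 7.73 and 11.5 CPM, with overlap between the ages. Both calls were lost when a single mouse was left out, with adjusted p-values up to 0.137 for Sox11 (without mouse 1, 3 or 4 of 90 days or mouse 1 or 3 of 155 days) and up to 0.111 for Gadd45a (without mouse 1 or 2 of 90 days or mouse 1 or 3 of 155 days). Marker sums also differed between the ages. In untreated WT mice the oligodendrocyte sum was 32876.7 to 39894.5 CPM at 90 days and 21342.7 to 23828.8 CPM at 155 days. In untreated G93A mice it was 27986.5 to 35915.9 CPM and 20590 to 24963.5 CPM. The astrocyte sum of untreated WT mice was 6302.71 to 7433.4 CPM at 90 days and 4789.27 to 5277.65 CPM at 155 days. The motor neuron sums of untreated WT mice overlapped between the ages. In untreated G93A mice the astrocyte sum was 6587 to 8912 CPM at 90 days and 14288 to 19742 CPM at 155 days. Their microglia sum was 384 to 589 CPM at 90 days and 1398 to 2524 CPM at 155 days. The part of these differences in the age comparisons was not tested.

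The treatment comparisons ask whether OKN007 changed the response. None of the 8 genes passed the test between OKN007-treated and untreated mice of either genotype at either age. By edgeR's quasi-likelihood test no other gene did, with 0% of 18675 genes in G93A and 0% in WT mice at 155 days and 0% of 18899 genes in G93A and 0% in WT mice at 90 days. At an unadjusted p under 0.05 (edgeR), 755, 549, 1050 and 769 genes passed in these 4 comparisons, and 0 of the 8 members, while DESeq2 called 0, 2, 0 and 0 genes and edgeR's likelihood ratio test 0, 4, 0 and 0 genes, with no member.

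**Figure D3:**
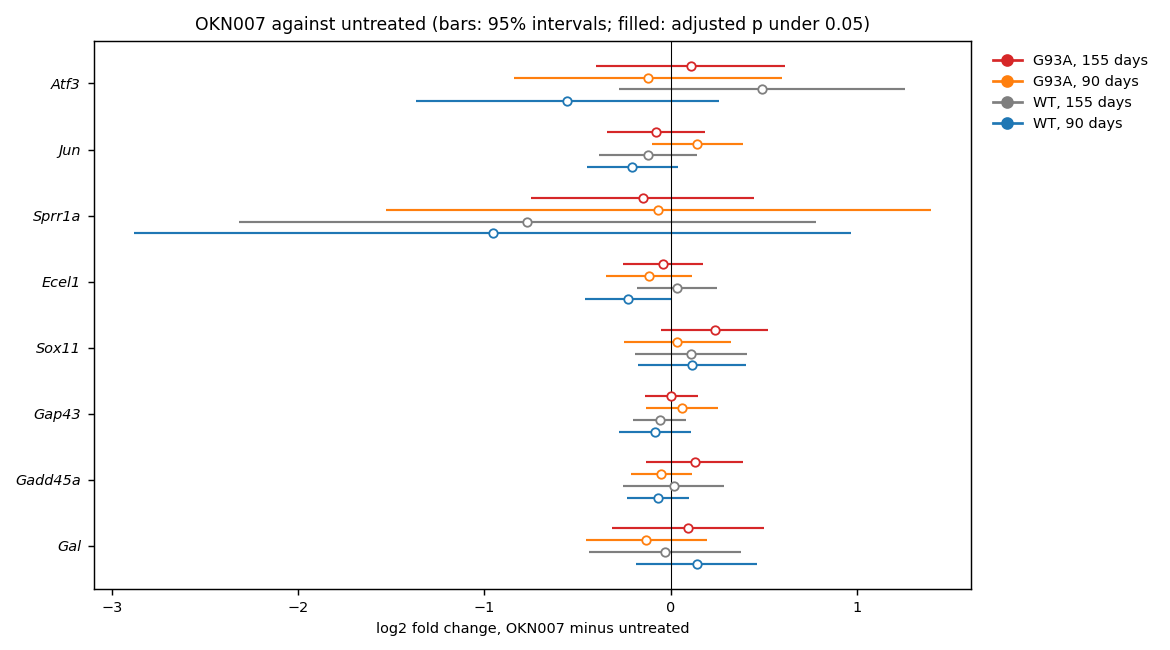
Log2 fold change of each gene in OKN007-treated against untreated mice of the same genotype and age, with 95% intervals; open points did not pass the test. All 32 points are open; the narrowest interval is that of Gap43 in G93A mice of 155 days (-0.14 to 0.15), and the widest are those of Sprr1a.

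In G93A mice of 155 days, where the response was strongest, the levels of treated and untreated mice overlapped for every gene. Atf3 had a log2 difference of 0.11 ± 0.24 (95% interval -0.40 to 0.62), beside a genotype difference of 4.38 in untreated mice. Sprr1a differed by -0.15 ± 0.29 (-0.75 to 0.45), Gadd45a by 0.13 ± 0.12 (-0.13 to 0.39), and Jun by -0.078 ± 0.12 (-0.34 to 0.18). Sox11 had the highest difference, 0.24 ± 0.14 (-0.052 to 0.53), with 3 of the 4 treated mice (19.4, 18.3 and 17.7 CPM) above all untreated ones (12.7 to 16.8 CPM) and the other at 13.3 CPM. Ecel1 differed by -0.040 ± 0.10, Gap43 by 0.0050 ± 0.067 and Gal by 0.094 ± 0.20. In G93A mice of 90 days the log2 differences lay between -0.13 (Gal) and 0.14 (Jun).
In WT mice they lay between -0.77 (Sprr1a, on 1 to 10 reads per mouse) and 0.49 (Atf3) at 155 days, where the lowest was -1.63 without WT OKN007 mouse 6, and between -0.96 (Sprr1a) and 0.14 (Gal) at 90 days. Whether the effect of OKN007 differed between the genotypes was tested as an interaction. At 155 days 0% of genes passed (437 at an unadjusted p under 0.05, edgeR quasi-likelihood), against 2 genes by DESeq2 and 3 by the likelihood ratio test and no member by either. The log2 differences of the 8 genes ran from -0.38 (Atf3) to 0.62 (Sprr1a), and the highest was 1.48 without WT OKN007 mouse 6. At 90 days 0% passed (531 at an unadjusted p under 0.05, edgeR, and 0 by DESeq2), with values from -0.27 (Gal) to 0.89 (Sprr1a), the highest being 1.65 without G93A untreated mouse 11. Of the 8 genes only Jun was at an unadjusted p under 0.05 in either interaction, at 90 days (log2 difference 0.35 ± 0.16).

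The partners of the members were read from lists of related genes, each without the 8 members, in untreated mice of 155 days, where the median log2 fold change of all genes was 0.00015 and 21.3% of all genes were higher and 18.2% lower. These lists were chosen with earlier results of these data known. The list of AP-1 genes, the dimer partners and relatives of Jun and Atf3, had 9 of 14 tested genes higher and 2 lower (Atf2 and Jdp2), with a median log2 fold change of 1.02. Fosl1, a Fos-related AP-1 subunit, was 25.9-fold higher (log2 fold change 4.69 ± 0.39, edgeR adjusted p = 1.87e-08), Maff had a log2 fold change of 2.44 and Batf one of 2.28. Junb (1.45 ± 0.22), Fos (1.38 ± 0.21) and Fosl2 (0.90 ± 0.20) were higher as well, whereas Jund (0.33 ± 0.17, edgeR adjusted p = 0.130) and Fosb (-0.60 ± 0.31, edgeR adjusted p = 0.136) did not pass. Jdp2, a repressor of AP-1 sites, had a log2 fold change of -0.23. Among injury transcription factors outside the members, 9 of 13 tested genes were higher and 0 lower, with a median of 0.54. Cebpd (log2 fold change 3.62 ± 0.28), Runx1 (2.84 ± 0.24) and Myc (2.16 ± 0.18) led them, and Stat3, the mediator of cytokine signals in injured neurons and glia, had 0.92 ± 0.082. Cebpd, Runx1 and Batf are also known from glia and immune cells, whose markers were higher in the same mice.

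**Figure D4:**
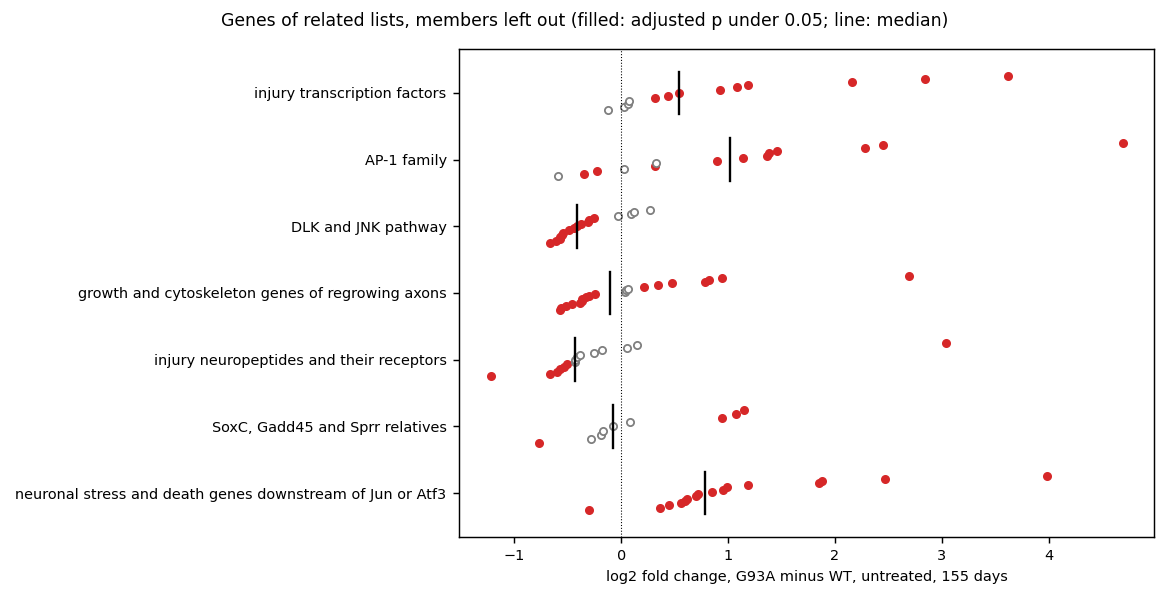
Log2 fold change in untreated G93A against WT mice of 155 days for the genes of 7 related lists, with the 8 members left out; filled points passed the test (edgeR adjusted p under 0.05) and the line is the median of a list. The list of stress and death genes lies almost wholly to the right of 0 (15 of 16 higher) and that of the DLK and JNK pathway mostly to the left (13 of 17 lower).

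The list of the DLK and JNK pathway went the other way. It holds kinases, scaffolds, Dusp phosphatases, Sarm1 and Stmn2, so its count is not one of kinases alone. Stmn2 was also in the growth and cytoskeleton list. Of 17 genes of the DLK and JNK pathway, 13 were lower in untreated G93A mice of 155 days and 0 higher, beside 18.2% and 21.3% of all genes, with a median log2 fold change of -0.42. Mapk8ip2, a JNK scaffold of neurons, had -0.67 ± 0.11 (edgeR adjusted p = 7.54e-05), Sarm1, the NAD-cleaving enzyme of axon degeneration, -0.61 ± 0.13, and Map2k4, the kinase that phosphorylates JNK, -0.57 ± 0.11. Neuron markers were lower in the same mice, 10 of 10. The growth and cytoskeleton list was split, with 7 of 20 genes higher and 10 lower (median -0.11). Tubb6, a tubulin of regrowing axons and of other cells, was 6.47-fold higher (log2 fold change 2.69 ± 0.19), and Chl1 (0.94 ± 0.090) and Marcksl1 (0.82 ± 0.12) were higher. The neuronal genes Stmn2 (-0.57 ± 0.081), Dpysl5 (-0.57 ± 0.096) and Stmn3 (-0.52 ± 0.11) were lower.

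A list of stress and death genes, put together as downstream of Jun or Atf3, had 15 of 16 genes higher and 1 lower, Lifr. Its median log2 fold change was 0.78. Whether these genes depend on Jun or Atf3 was not tested. Hspb1, the small heat shock protein that protects injured motor neurons and is also made by glia, was 15.8-fold higher (log2 fold change 3.99 ± 0.43, edgeR adjusted p = 5.41e-07). Trib3, a pseudokinase of the integrated stress response, had 2.47 ± 0.24, and Tnfrsf12a, the TWEAK receptor, 1.88 ± 0.17. Among the closest relatives of the members, 3 of 9 tested genes were higher and 1 lower, beside 21.3% and 18.2% of all genes, so that the list was near the background; its median was -0.080. Gadd45g (1.15 ± 0.23), Gadd45b (0.94 ± 0.16) and Sox4 (1.07 ± 0.10) were the higher genes, while Sox12, the remaining SoxC gene, had -0.19 ± 0.15 (edgeR adjusted p = 0.308). Mmel1, an endopeptidase of the family of Ecel1, was lower (-0.77 ± 0.19). Sprr1b and Sprr2a1 of this list were not analysed here.

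Of 15 tested genes for injury neuropeptides and their receptors, 1 was higher and 6 were lower, beside 21.3% and 18.2% of all genes, with a median of -0.43. The higher gene was Galr3, a receptor for galanin (log2 fold change 3.04 ± 0.38, edgeR adjusted p = 4.63e-06). Galr1 had -0.43 ± 0.24 (edgeR adjusted p = 0.171), and Galr2 had too few reads to be tested. Vipr2 (-1.22 ± 0.30), Npy2r (-0.67 ± 0.13) and Vip (-0.60 ± 0.22) were lower. In treated mice of 155 days, 23.3% of all genes were higher and 18.2% lower. There 9 of 14 AP-1 genes were higher and 0 lower, and 10 of 13 transcription factors were higher and 0 lower. Of 16 stress genes 14 were higher and 1 lower, and of 9 relatives 3 were higher and 2 lower. Of 17 genes of the DLK and JNK pathway 1 was higher and 12 were lower. Of 20 growth genes 6 were higher and 9 lower, and of 15 neuropeptide genes 2 were higher and 9 lower. In G93A mice of 155 days 0 genes of these lists passed the test (edgeR) between OKN007 and untreated mice. At 90 days 0 genes of these lists passed (edgeR) between G93A and WT mice with the treatments averaged, and Tnfrsf12a, with a log2 fold change of 0.48 ± 0.084 (edgeR adjusted p = 0.0648).

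Whether the members varied together from mouse to mouse was read from the deviations of log2 CPM from the group means in all 32 mice, over 28 pairs. Of these, 24 were positive. A pair was tested by permutation within groups (100000 resamples, two-sided), adjusted over the 28 pairs. Sox11 and Gal had r = 0.68 (rho = 0.63, permutation p = 0.0010, adjusted p = 0.028), and Ecel1 and Gap43 had r = 0.68 (rho = 0.59, permutation p = 0.0023, adjusted p = 0.032), and no other pair passed. Without the 2 mice farthest from the median, r was 0.57 and 0.50, and both permutation p-values adjusted over the 28 pairs were 0.132, so that these relations rest in part on those mice. Atf3 and Jun had r = -0.16 (rho = -0.14, permutation p = 0.465, adjusted p = 0.650), and Atf3 and Sprr1a r = 0.43 (rho = 0.48, permutation p = 0.061, adjusted p = 0.214).

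**Figure D5:**
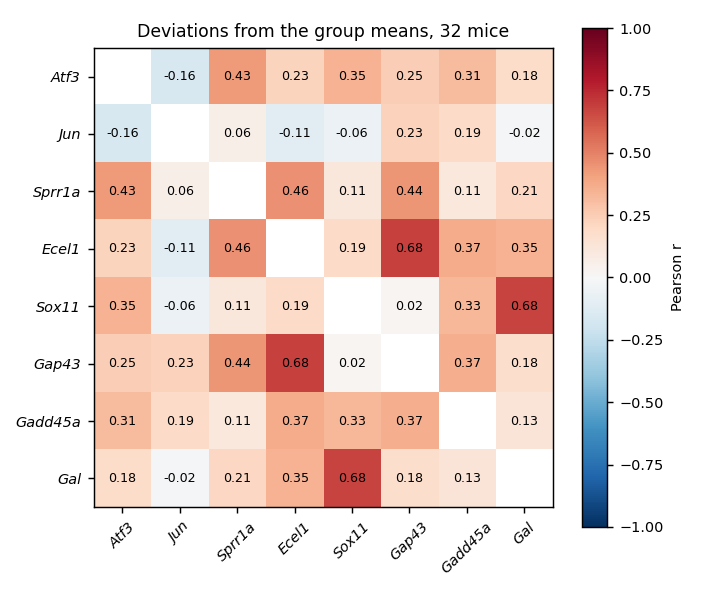
Pearson r between the 8 genes over the 32 mice, computed on the deviations of log2 CPM from the group means so that genotype, treatment and age do not enter. The pairs of Ecel1 with Gap43 and of Sox11 with Gal have the highest values, 0.68 each, and the 4 negative pairs all include Jun.

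Among all genes tested, those whose deviations were most like each member over the 32 mice are given as a description. Sprr1a was most like Serpina3n (r = 0.77), a serine protease inhibitor of reactive astrocytes, and Tubb6 (r = 0.70). Atf3 was most like Gpr65 (r = 0.74), a proton-sensing receptor of immune cells, and Scarna17 (r = 0.71), and Jun most like Golph3l (r = 0.78) and Fut10 (r = 0.78). Ecel1 was most like Cited2 (r = 0.82) and Mrpl49 (r = 0.74), Sox11 most like Nradd (r = 0.80) and Ptbp1 (r = 0.79), and Gap43 most like Kcnf1 (r = 0.78) and Rnf2 (r = 0.77). Gadd45a was most like Trib1 (r = 0.75) and Aldh1l1 (r = 0.72), an astrocyte enzyme, and Gal most like Lmna (r = 0.80) and Rarres2 (r = 0.80). These genes share libraries and depth with the members.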

How the data were processed

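Spinal cord RNA of 32 mice was made into stranded mRNA libraries, 1 per mouse. The authors deposited raw counts of reads per gene, without normalization; their methods name Trimmomatic, STAR, HTSeq and a GRCm38 GENCODE annotation, whereas the submitters' processing notes name STAR, featureCounts, GRCm39 and mm39 (and hg38), so counter, annotation and strand setting are not settled here. Gene IDs were paired with symbols for 41203 of 42524 genes (96.89%), and positions and lengths come from GENCODE M21.

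Counts were analysed in R 4.3.3 with edgeR 4.0.16 (limma 3.58.1): filterByExpr, TMM, glmQLFit and glmQLFTest without covariates, Benjamini-Hochberg over all genes tested. The 16 mice of an age were fitted together, and age comparisons used all 32. Totals per mouse (19701722 to 30138257 counts) set the precision. Standard errors come from the quasi-likelihood F statistic. Deviations used log2 CPM with a prior count of 2. Identical counts were found in 0 pairs of libraries within groups, and pairs across groups were not compared. The procedure was tested on simulated data.

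The members, the related lists and the marker lists were chosen with earlier results of these data known. In each related list the text names up to 3 genes with the largest and 3 with the smallest change past the threshold among those without overlap between groups, the AP-1 genes Junb, Jund, Fos, Fosb, Fosl1 and Fosl2, the relatives Gadd45b, Gadd45g, Sox4, Sox12, Galr1, Galr2 and Galr3, and the 2 genes most like each member; Stat3, Atf2, Lifr and the 90-day value of Tnfrsf12a were picked after their values were seen. Alternatives were DESeq2 1.42.0, the likelihood ratio test, RLE factors, other filters, robust dispersions, a caudal Hox covariate, other sets of mice and thresholds, and each mouse left out. Leaving out the libraries with liver transcripts was added after seeing the data.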

Additional observations from a re-analysis of the deposited data

Results flagged for a closer look

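The G93A change differed between the ages by the test of the difference itself, 155 minus 90 days, in 10 cases. Of all 19829 genes, 21.2% passed this test in untreated and 23% in OKN007-treated mice. In untreated mice the difference of the log2 fold changes was 3.26 for Atf3, 0.93 for Jun, 3.74 for Sprr1a, 0.47 for Ecel1 and 1.42 for Gadd45a. In OKN007-treated mice it was 2.39 for Atf3, 0.60 for Jun, 3.40 for Sprr1a, 0.73 for Sox11 and 1.5 for Gadd45a. Sprr1a in WT mice rests on 1 to 39 reads per mouse, and its difference in treated mice missed the threshold in 11 of 32 refits with a mouse left out (adjusted p up to 0.163).

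Each of the 8 genes was checked in each of the 8 groups of 4 mice, 64 checks in all. In 5 of them 1 mouse lay far from the other 3 by Dixon's test. Chance gives about 1 in 20, but the checks share mice and are not independent. Jun stood at 84.4 CPM in WT OKN007 mouse 8 of 90 days, against 64.6 to 65.9 CPM in the others. WT untreated mouse 2 of 90 days was high in Sprr1a (1.45 CPM against 0.204 to 0.413) and in Ecel1 (40.04 CPM against 34.2 to 35.1). Ecel1 stood at 34.3 CPM in WT OKN007 mouse 7 of 155 days, against 40.4 to 41.4 CPM in the others. Gal stood at 12.3 CPM in G93A untreated mouse 11 of 155 days, against 6.31 to 7.08 CPM in the others. The causes were not tested.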

How the results depend on the processing

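Both G93A comparisons of 155 days kept 7 of 8 genes under every setting and with any mouse left out, except that a minimum of 10 counts in every mouse removed Sprr1a and left a count of 6. Of 2837 values by gene and setting, 2712 kept their direction and side of the threshold, 29 lost and 41 gained a call, and 55 changed sign, none of which had passed the test. At 90 days with the treatments averaged, the count of members called was 0, and 1 at an adjusted p under 0.10, with DESeq2 and with all 32 mice in 1 fit, 2 with the likelihood ratio test and without a filter on low counts, and 0 to 1 with a mouse left out. Of all genes, 15 passed under 0.10, 21 with all 32 mice and 110 of 41945 without a filter. Without G93A untreated mouse 9 or 12, where Atf3 was called, 12 and 54 genes passed. In OKN007-treated mice the count was 2 without a filter, where 24 of 41945 genes passed. Between the ages in untreated WT mice the count was 2 and fell to 0 to 2 with a mouse left out. The 2 correlated pairs of members became 0 without the 2 samples farthest from the median. Over all genes, DESeq2 and the likelihood ratio test called 66 and 64 genes at 90 days with the treatments averaged, against 5, and 16 and 11 against 0 in untreated mice. The cause was not tested. Sample numbers are shared by the ages, but 2 of 16 same-number pairs correlated above 0.1 (median -0.012), so the numbers do not pair the mice. With the number as a replicate block, 6, 5, 2 and 6 members passed in the 4 age comparisons, against 5, 5, 2 and 6. Of all 19829 genes, 4197, 4624, 4824 and 6473 passed with the block.

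Sign changes among uncalled log2 differences were these. For OKN007 in G93A mice of 155 days, Gap43 (0.0050) was -0.0016 with DESeq2, -0.0019 with RLE factors, -0.0029 with 10 counts in every mouse, -0.00092 with only the compared groups, -0.0046 with all 32 mice and -0.067 without the liver-trace libraries, which also gave Atf3 -0.13 and Gal -0.075; the Hox covariate gave Gal -0.0010. With a mouse left out, Gap43 ranged from -0.030 to 0.042, Jun from -0.17 to 0.0049, Sprr1a from -0.32 to 0.26, Ecel1 from -0.11 to 0.060, Atf3 from -0.0081 to 0.24 and Gal from -0.0055 to 0.37. For G93A against WT at 155 days, Gal was 0.24 with the Hox covariate and 0.0076 without the liver-trace libraries in untreated mice (-0.36 to 0.043 with a mouse left out), and -0.047 and, with all 32 mice, -0.0042 in treated mice (-0.047 to 0.15). For G93A against WT at 90 days, Gap43 was -0.030 without a filter (-0.025 to 0.039 with a mouse left out), Jun ranged from -0.11 to 0.036, Sox11 from -0.016 to 0.17, treated Sox11 from -0.072 to 0.10 (-0.072 without the liver-trace library) and averaged Gal from -0.025 to 0.11. For OKN007 in G93A mice of 90 days, Sprr1a was 0.14 with the Hox covariate (-0.76 to 0.70 with a mouse left out), Sox11 ranged from -0.030 to 0.12 and Atf3 from -0.35 to 0.41. Between the ages in WT mice, Gap43 ranged from -0.12 to 0.0058 and Jun from -0.077 to 0.15.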
